A study of Mus musculus with 32 samples.

Results

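Cysteine is decoded in mouse by tRNAs with the anticodon GCA, and their genes were taken as every tRNA locus whose name starts with tRNA-Cys-GCA- in the tables of chromatin accessibility at tRNA genes. There were 54 such loci among 401, of which 29 carried the family number 4 (tRNA-Cys-GCA-4-1 to 4-29) and 25 carried other family numbers. Accessibility was measured by ATAC-seq, a method that uses a transposase to insert sequencing adapters into DNA free of nucleosomes, on nuclei of brain and liver from male C57BL/6N mice, which were 10 weeks old as far as the study's general statement on its animals covers these samples. Wild-type mice were compared with homozygous littermate-matched mice that lacked 1 tRNA-Phe gene, made with CRISPR-Cas9: tRNA-Phe-GAA-1-1 in the line Phe11, tRNA-Phe-GAA-2-1 in Phe21 and tRNA-Phe-GAA-3-1 in Phe31. The 15 brain libraries came from 5 wild-type, 4 Phe11, 3 Phe21 and 3 Phe31 samples, and the 17 liver libraries from 7 wild-type, 4 Phe11, 3 Phe21 and 3 samples labelled Phe31.

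A tRNA gene is transcribed by RNA polymerase III from a promoter inside the gene, and transcribed copies lie in open chromatin free of nucleosomes. In GtRNAdb names the first number marks an isodecoder family, whose members share 1 mature tRNA sequence, and the second number marks the gene copy. The mouse cysteine tRNA set is the largest of any anticodon in these tables, so the same mature tRNA can in principle be supplied from many places in the genome. No sequence of these loci is printed because the genes named by GtRNAdb could not be read from the sequence tables used here.

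Libraries held between 20315 and 35565 reads over the 401 loci in brain (median 26173) and between 4719 and 23754 in liver (median 9329). Signal at tRNA-Arg-TCT-4-1, a gene known to be expressed in the central nervous system, was between 66.9 and 98.1 reads per 10000 in brain and between 0.538 and 14.3 in liver. In brain the deleted tRNA-Phe gene kept 33.4% (Phe11), 7.02% (Phe21) and 4.82% (Phe31) of its wild-type mean, and in liver 12.9% (Phe11) and 8.02% (Phe21). The liver libraries labelled Phe31 kept 75.4% of the wild-type mean at tRNA-Phe-GAA-3-1 and 9.95% of it at tRNA-Phe-GAA-1-1, which goes against the label, so they are called the libraries labelled Phe31 throughout. Of 55 pairs of libraries of 1 group, 4 had counts closer than independent sampling gives (wild-type liver 1 and 22, wild-type liver 3 and 24, wild-type brain 3 and 18, Phe11 liver 6 and 20), each across batches 1 and 2 as the labels number them, and each pair is counted once in means and their n. The study describes its control samples as coming from several mice in each tissue. Some column names carry a further number that recurs in both tissues, as in wild-type brain 18 and wild-type liver 24. Whether that number marks an animal is not given, so it was not used to assign libraries to animals. The p-values therefore measure the spread between these libraries, which may be partly technical.

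Most cysteine loci carried almost no signal. Only 10 of 54 loci (18.5%) reached a mean normalised count of 10 in all 3 brain tables, and 6 of 54 (11.1%) did so in all 3 liver tables. Over the 347 other loci the shares were 70.0% in brain and 49.3% in liver. A total of 44 cysteine loci (81.5%) stayed under that mean in every table, against 25.9% of the other loci. Among the 14 other anticodons with at least 10 loci, that share ran from 7.69% to 54.5% (median 30.4%), so cysteine lay above the highest of them.

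The loci with signal fell into 2 sets. The loci that passed are called accessible here. The first set was tRNA-Cys-GCA-1-2, 2-1, 3-1, 3-2, 3-3 and 3-4, which passed in both tissues. The second set was tRNA-Cys-GCA-4-10, 4-12, 4-13 and 4-29, the only 4 of 29 family 4 loci that passed, and these passed in brain alone. All 4 copies of family 3 were in the first set, and they held between 57.3% and 78.8% of all cysteine reads in every library. Levels are given below as reads per 10000 reads over all 401 loci, which lets libraries of different tables be set side by side. The 57 RefSeq cysteine tRNA genes have nearly 1 length (70 to 72 bp, median 72), so levels are compared between loci without a length correction.

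**Figure D1:**
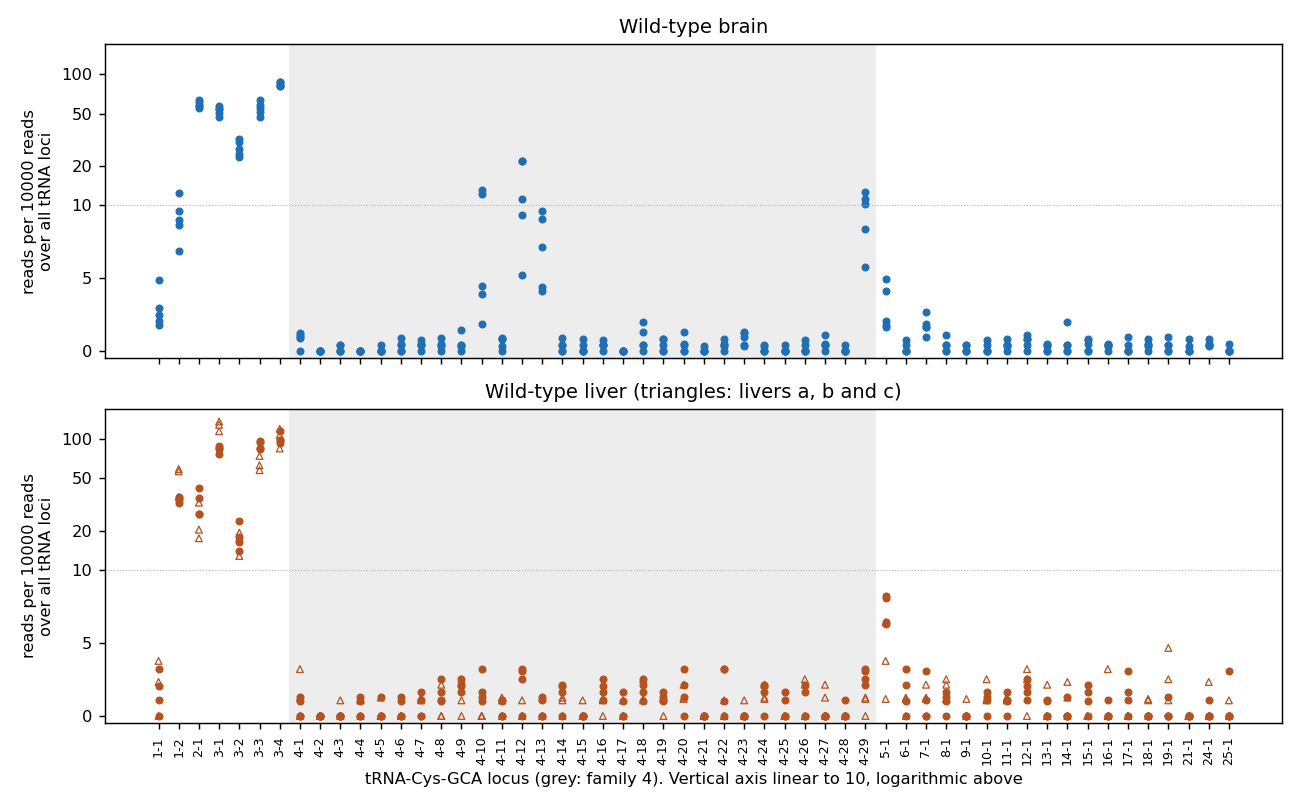
Reads per 10000 reads over all tRNA loci (vertical axis, linear up to 10 and logarithmic above) at each of the 54 tRNA-Cys-GCA loci (horizontal axis) in the 5 wild-type brain libraries (upper panel) and the 7 wild-type liver libraries (lower panel, with triangles for livers a, b and c). Each point is 1 library, the grey band marks family 4, and only 4-10, 4-12, 4-13 and 4-29 stand out of that band, in brain.

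In wild-type brain the highest cysteine locus was 3-4, with 84.3 ± 2.98 reads per 10000 (SD, n = 4). It was followed by 2-1 (59.5 ± 4.06), 3-3 (56.2 ± 5.75) and 3-1 (52.6 ± 1.83), whose libraries overlapped. Next came 3-2, with 27.1 ± 3.47, and 4-12, with 14.8 ± 8.35, whose libraries overlapped those of the 4 loci below it. The lowest of the 10 were 4-29 (9.41 ± 3.02), 1-2 (9.24 ± 0.525), 4-10 (7.85 ± 5.64) and 4-13 (7.15 ± 2.63), and their ranges overlapped. The median over all 10 was 20.9 reads per 10000, beside 28.7 over the 267 tRNA loci of any kind that passed in at least 1 table.

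In wild-type liver replicates 1, 3, 22 and 24 the order was different. Here 3-4 (102 ± 3.90, n = 2 with close pairs counted once), 3-3 (90.3 ± 7.73) and 3-1 (84.1 ± 4.81) were the highest. Behind them 1-2 (34.5 ± 0.802) and 2-1 (32.7 ± 8.58) overlapped, and 3-2 was the lowest of the 6 at 17.96 ± 3.93. The 3 wild-type livers of the comparison with the libraries labelled Phe31, which form batch 3 and have no sample number, differed at some of these loci. In them 3-1 was the highest, with 136, 128 and 115 reads per 10000, and 1-2 read 56.7, 36.2 and 59.0.

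Between wild-type brain and wild-type liver of batches 1 and 2, with batch as a term, 6 cysteine loci could be tested. All 6 were called, 4 lower and 2 higher in brain, where 72.8% of 217 loci tested were called (41.5% higher and 31.3% lower in brain). The widest difference was at 1-2, which read 9.64, 6.89, 8.62, 12.5 and 8.99 reads per 10000 in brain replicates 1, 3, 16, 18 and 2 and 32.3, 34.2, 35.6 and 35.9 in liver replicates 1, 3, 22 and 24. Its log2 difference, brain minus liver, was -1.78 ± 0.18 (SE, limma, adjusted p = 2.62e-07). In contrast 2-1 was higher in brain, with 64.1, 57.1, 55.0, 57.8 and 61.4 in brain and 42.0, 26.6, 35.6 and 26.7 in liver and a log2 difference of 0.85 ± 0.13 (adjusted p = 2.89e-05).

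Family 3 did not move as a block between the tissues, although its copies share a mature sequence. In brain relative to liver 3-1 (log2 -0.66, adjusted p = 3.12e-06), 3-3 (-0.71, adjusted p = 6.73e-06) and 3-4 (-0.28, adjusted p = 0.00309) were lower and 3-2 was higher (0.62, adjusted p = 0.00378, all limma). For 3-2 the 5 brains read 23.5, 27.1, 30.4, 32.2 and 24.7 reads per 10000 and the 4 livers 23.7, 13.9, 17.8 and 16.4, so that liver 1 lay just above the lowest brain. The call at 3-2 was lost within batch 1 alone (log2 0.44, adjusted p = 0.121) and the call at 3-4 within batch 2 alone (log2 -0.19, adjusted p = 0.206). The median log2 difference over the 6 cysteine loci was -0.47, beside 0.08 over all loci tested.

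The 4 accessible copies of family 4 fell under the mean of 10 in this comparison and were examined in a fit with no filter on low values, in which 55.5% of 380 loci were called (31.3% higher and 24.2% lower in brain). These copies were picked out by passing the filter in the brain tables and in no liver table, so their higher signal in brain restates that choice and is given as a description. The log2 differences were 1.36 ± 0.46 at 4-10 (SE, adjusted p = 0.0199), 2.233 ± 0.48 at 4-12 (adjusted p = 0.000831), 2.33 ± 0.39 at 4-13 (adjusted p = 9.33e-05) and 1.47 ± 0.31 at 4-29 (adjusted p = 0.000772, all limma). The numbered wild-type livers held at most 3 reads at 4-10, 4-12 or 4-13, and livers a, b and c held at most 1. Over family 4 as a whole 5 loci were called higher in brain and 4 lower among 28 tested without the filter, and over the other families 2 were called higher and 6 lower among 25. Besides the 4 accessible copies, the called family 4 loci (4-23 higher, 4-8, 4-9, 4-16 and 4-24 lower) had mean levels between 0.437 and 1.32 reads per 10000.

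Between these sets and the lowest loci lay 3 loci of other families. Summed over the 15 brain libraries, 1-1 held 118 reads, 5-1 held 108 and 7-1 held 67, whereas the other 41 loci under the filter held between 1 and 21 each. In the 17 liver libraries 5-1 held 109 reads, 1-1 held 22 and 7-1 held 18. The remaining family 4 loci and the remaining loci of the other families were much alike in this respect. The 25 low copies of family 4 held between 1 and 21 reads each in brain (median 11) and between 1 and 22 in liver (median 14), and the 16 low copies of other families, without 1-1, 5-1 and 7-1, held between 3 and 21 in brain (median 14) and between 2 and 25 in liver (median 13.5). Every one of the 44 low loci had at least 1 read in each tissue, so none was without reads. No background level was estimated, so these reads do not show that a locus was accessible.

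Reads were kept only with a mapping quality of at least 30, and copies that share a sequence can lose reads that fit several places equally well. Whether this lowered the family 4 values was not tested. The peak lists of the same study give a second view by position. RefSeq (assembly GRCm38.p6, the build of the peaks) lists 57 cysteine tRNA genes under its own n-TCgca symbols, of which 49 lie on chromosome 6, 5 on chromosome 11, 2 on chromosome 9 and 1 on chromosome 17. The RefSeq symbols could not be paired with the GtRNAdb names, so peaks and counts are described separately.

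Of the 49 genes on chromosome 6, 48 lie in a cluster between positions 48133937 and 48363603, a span of 230 kb with a median spacing of 3468 bp. None of the 48 overlapped a consensus peak in any of the 6 tables. The same span held 7 peaks in the brain table of Phe11 and 6 in each of the other brain tables, all of them away from the tRNA genes, and 0 in each liver table. Over all 430 RefSeq tRNA genes the share within a peak ran from 40.9% to 56.5% by table. The peaks were called by the authors on nucleosome-free reads after the same quality filter, so the limit on reads that fit several copies holds here too.

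Outside the cluster 6 or 7 of the 9 cysteine genes lay in a peak, depending on the table. The gene n-TCgca57, at chr6:47978997-47979068 and 155 kb before the cluster, was in a peak in all 6 tables, as was n-TCgca52 at chr17:71599271-71599342. On chromosome 11 the same held for n-TCgca56 (chr11:97797072-97797143), for n-TCgca51 (chr11:97798906-97798977), which ends 28 bp before the gene Lasp1, and for the neighbours n-TCgca55 (chr11:97988246-97988317) and n-TCgca54 (chr11:97988923-97988994), which shared 1 peak. None of these 6 overlapped another RefSeq gene. Tissue set apart n-TCgca47, at chr9:104400120-104400191, which lay in a peak in the 3 brain tables and in none of the 3 liver tables. The gene n-TCgca18 (chr11:97769829-97769900) lay in a peak in the Phe11 liver table alone.

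In brain, 3 copies of family 4 were called lower in the Phe11 mice than in wild type. Against wild-type brain 10 cysteine loci were tested, and 4-10, 4-12 and 4-13 were called lower and none higher, where 28.1% of 263 loci were called in either direction and 13.3% were called lower. The direction is partly set by the filter, since 4-10 and 4-13 had Phe11 means of 4.61 and 6.51, under 10, and passed through the wild-type libraries, and a locus low in both groups could not enter. Without a filter, where 16.6% of 379 loci were called, the same 3 loci were called lower among 54 cysteine loci tested, and 0 were called higher. At 4-12 the normalised counts were 56.7, 24.3, 57.0 and 29.0 in wild-type replicates 1, 3, 16 and 18 and 15.6, 10.2, 9.91 and 14.9 in Phe11 replicates 5, 6, 13 and 14. The groups did not overlap, as held for 27.8% of all loci tested in that table, and the log2 change was -1.58 ± 0.25 (SE, limma, adjusted p = 1.93e-05). The Phe11 mean of 12.6 ± 3.02 (SD, n = 4) was 27.02% of the wild-type mean of 46.8 ± 17.4 (n = 3). At 4-10 the counts were 33.8, 10.2, 32.2 and 11.6 in wild type and 1.94, 6.46, 5.66 and 4.39 in Phe11, again without overlap, with a log2 change of -1.92 ± 0.42 (adjusted p = 0.00101). At 4-13 they were 25.1, 11.5, 23.6 and 18.5 in wild type and 11.7, 6.46, 3.54 and 4.39 in Phe11, where Phe11 replicate 5 lay just above wild-type replicate 3. The log2 change at 4-13 was -1.52 ± 0.36 (adjusted p = 0.00183).

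The fourth accessible copy of the family, 4-29, was not called, with counts of 21.8, 26.8, 15.04 and 29.0 in wild type and 33.1, 22.2, 29.0 and 26.3 in Phe11 (log2 change 0.27 ± 0.20, adjusted p = 0.326). The 6 accessible loci of other families had log2 changes between -0.20 and 0.15 and were not called, with adjusted p of at least 0.0574 (limma). Of the 10 cysteine loci 5 had an unadjusted p under 0.05, the 3 that were called and 2-1 and 3-4 (log2 -0.20 ± 0.08 and -0.14 ± 0.06, adjusted p = 0.0574 and 0.0986, limma). At 2-1 the normalised counts were 167, 148, 144 and 149 in wild type and 127, 138, 129 and 136 in Phe11, so that the groups did not overlap, which makes 2-1 the third cysteine locus without overlap beside 4-10 and 4-12. The median log2 change over the 6 accessible loci of other families was -0.10, and over all 10 cysteine loci it was -0.16, beside -0.01 over all loci tested.

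The wild-type libraries differed widely at these 3 loci. Wild-type replicates 1 and 16 had 44.4 and 43.1 reads per 10000 summed over 4-10, 4-12 and 4-13, while replicates 3 and 18, which count as 1 sample, had 17.7 and 22.8. The 4 Phe11 libraries had between 7.59 and 11.6. Replicates 1 and 16 were not closer to each other than sampling gives by the chi-square test (chi-square per degree of freedom 0.882, adjusted p = 0.426). They were counted as separate samples, although this test cannot show that they came from different animals. The column names of brain 16 and liver 22 carry the same number, and livers 1 and 22 were a close pair. Whether brains 1 and 16 share an animal was not tested. One more wild-type brain, replicate 2, was not part of the Phe11 table, and its sum of 11.2 reads per 10000 lay within the Phe11 range. With all 5 wild-type brains in a fit at equal library totals, chosen after seeing the data, the log2 changes were -1.58, -1.28 and -1.31 at 4-10, 4-12 and 4-13, and all 3 calls held (adjusted p = 0.0125, 0.00246 and 0.00911, limma). Within batch 1 the adjusted p of the 3 loci were 0.182, 0.0589 and 0.389 (log2 -2.08, -1.49 and -0.89), and within batch 2 they were 0.00942, 0.000778 and 0.00105 (log2 -1.77, -1.66 and -2.15, limma). The batches are not independent of each other here, since wild-type replicates 3 and 18 are a close pair across them.

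**Figure D2:**
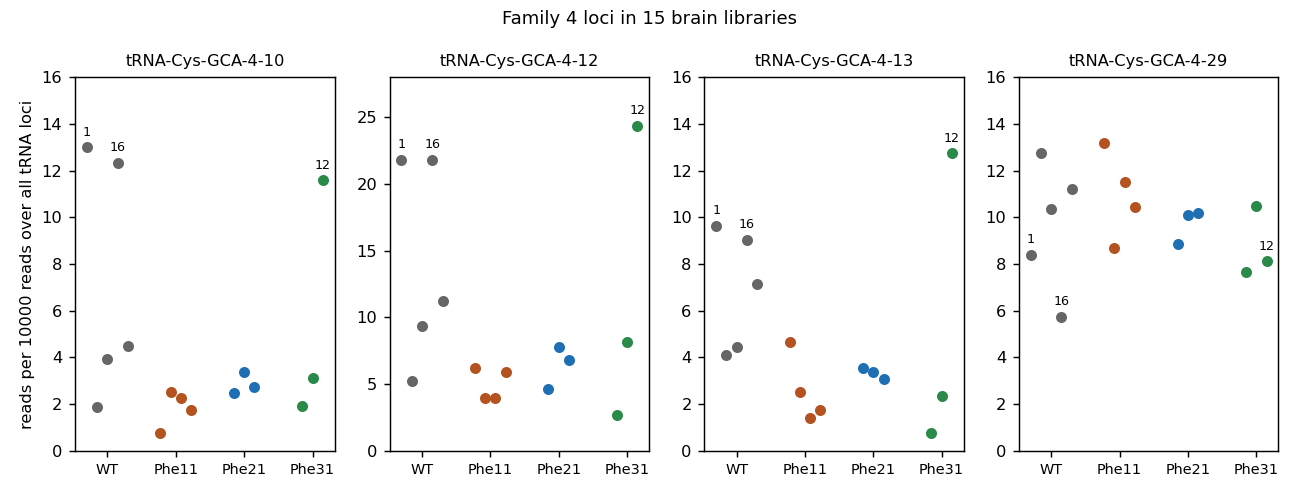
Reads per 10000 reads over all tRNA loci (vertical axis, linear, its range set per panel) at 4-10, 4-12, 4-13 and 4-29 in the 15 brain libraries by genotype (horizontal axis), 1 point per library. The libraries labelled 1, 16 and 12 (wild-type replicates 1 and 16, Phe31 replicate 12) are the 3 highest at 4-10, 4-12 and 4-13 and are not at 4-29.

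After the values were seen, the same 3 of 15 brain libraries were found highest at each of 4-10, 4-12 and 4-13. These were wild-type replicates 1 and 16 and Phe31 replicate 12. Their sums were 44.4, 43.1 and 48.7 reads per 10000, and those of the other 12 libraries ran from 5.35 to 22.8. At 4-12 the 3 libraries held 52, 53 and 63 reads, and the other 12 held between 7 and 25. The 3 libraries were chosen from their values at 4-10, 4-12 and 4-13, which therefore meet this criterion by construction. At no other of the 267 tRNA loci that passed in any table did the same 3 libraries exceed all others. In contrast, 4-29 ranged only from 5.75 to 13.2 reads per 10000 over the 15 libraries, and the 3 libraries read 8.38, 5.75 and 8.11 there. The totals of the 3 libraries were 23857, 24351 and 25898 reads, within the range of the brain libraries, and the part of depth in this pattern was not tested.

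No cysteine locus was called in either of the other knockouts in brain. In Phe21 brain 0 of 10 cysteine loci were called, where 0% of 253 loci were called by limma, and 0 of the 10 had an unadjusted p under 0.05, with 0 called by edgeR or DESeq2. The values at 4-12 were 55.6, 13.4 and 24.1 in wild-type replicates 1, 2 and 3 and 11.9, 20.8 and 17.8 in Phe21 replicates 7, 8 and 9, so that the groups overlapped (log2 -0.65 ± 0.40), and the log2 change was -0.13 without wild-type replicate 1 and -1.11 without wild-type replicate 2. At 4-13 the wild types (24.6, 10.6 and 11.4) lay above the Phe21 libraries (9.17, 9.05 and 7.997), as held for 24.1% of loci in that table, but the difference did not pass the test (log2 -0.67 ± 0.39, limma, adjusted p = 0.409). In Phe31 brain 0 of 10 were called, where 0.775% of 258 loci were called, with 0 at an unadjusted p under 0.05 and 0 by edgeR or DESeq2. Here 4-12 read 6.62, 19.7 and 59.6 in Phe31 replicates 10, 11 and 12 against the same 3 wild-type libraries, which spanned 12.8 to 53.4 (log2 -0.30 ± 0.55). The direction there rested on 1 library, with a log2 change of 0.43 without Phe31 replicate 10 and -1.06 without Phe31 replicate 12, neither of them called. The 6 loci of other families had log2 changes between -0.15 and 0.12 in Phe21 brain and between -0.10 and 0.00 in Phe31 brain.

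These brain comparisons share wild-type libraries, so the knockouts were also set against each other directly. At 4-10, 4-12 and 4-13 no difference between Phe11 and Phe21 brain was called in a fit with no filter, where 23.4% of 380 loci were called (log2 -0.70 ± 0.47, -0.44 ± 0.44 and -0.29 ± 0.46, adjusted p of at least 0.325, limma). Against Phe31 brain the log2 differences were -1.17 ± 0.47, -0.82 ± 0.44 and -0.29 ± 0.46 (adjusted p of at least 0.175, limma), where 2.63% of 380 loci were called. With the filter 0 of 5 cysteine loci were called between Phe11 and Phe31 brain, where 6.67% of 225 loci were called by limma, with 0 at an unadjusted p under 0.05 and 0 by edgeR or DESeq2. A lower signal at these copies was therefore not shown to differ between the knockouts. One locus of family 3 was called between Phe11 and Phe21 brain, where 35.1% of 225 loci were called. It was 3-1, with 61.7, 51.4, 65.0 and 60.1 reads per 10000 in Phe11 and 53.1, 42.1 and 41.8 in Phe21 (log2 0.31 ± 0.10, adjusted p = 0.0189), and the call was lost with TMM scaling (adjusted p = 0.0791), with DESeq2 on recovered reads (adjusted p = 0.0874) and without Phe11 replicate 5, Phe21 replicate 8 or Phe21 replicate 9 (adjusted p = 0.147, 0.102 and 0.111).

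**Figure D3:**
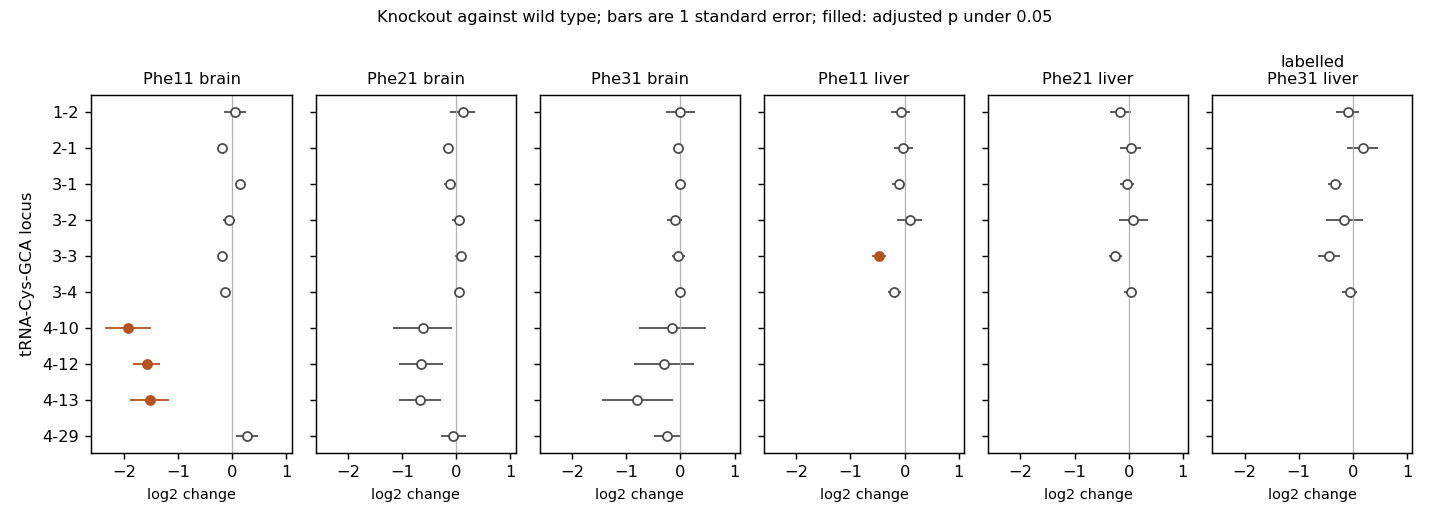
Log2 change of each accessible tRNA-Cys-GCA locus (vertical axis) in each knockout against wild type of the same table, on the log2(normalised count + 1) scale (horizontal axis, bars are 1 SE). Filled points have an adjusted p under 0.05: 4-10, 4-12 and 4-13 in Phe11 brain and 3-3 in Phe11 liver, while the 4 family 4 loci are under the filter in liver and have no point there.

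In liver, 6 cysteine loci passed the filter in each table and 1 of them changed. In Phe11 liver the copy 3-3 was called lower, where 12.1% of 207 loci were called in either direction and 6.76% were called lower. Its normalised counts were 85.4, 96.5, 85.3 and 96.7 in wild-type replicates 1, 3, 22 and 24 and 60.3, 68.6, 71.7 and 61.0 in Phe11 replicates 4, 6, 20 and 21, with no overlap, as held for 13% of loci tested there. The log2 change was -0.47 ± 0.13 (SE, limma, adjusted p = 0.00504). The call was lost within batch 1 (log2 -0.49, adjusted p = 0.206) and within batch 2 (log2 -0.45, adjusted p = 0.178), where 2 libraries stood against 2, and in limma without trend (adjusted p = 0.0614). The values of the batches are not independent, since both wild-type libraries and 1 Phe11 library of batch 2 are close pairs of libraries of batch 1. The other 3 copies of family 3 had log2 changes of -0.11 (3-1), 0.09 (3-2) and -0.19 (3-4) and were not called.

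The other liver comparisons gave no call at a cysteine locus. In Phe21 liver 0 of 6 were called, where 13.4% of 201 loci were called, with 0 at an unadjusted p under 0.05 and 0 by edgeR or DESeq2. At 3-3 all 3 Phe21 libraries (80.6 to 88.8) were below all 3 wild-type libraries of that table (93.1 to 107) (log2 -0.25 ± 0.13, limma, adjusted p = 0.183), and 31.3% of loci in that table had groups without overlap. Without a filter, where 11.4% of 377 loci were called, 4-10 was called lower (log2 -1.52 ± 0.53, adjusted p = 0.0497), at 0 reads in all 3 Phe21 livers and 3, 1 and 1 reads in the wild types. Among the libraries labelled Phe31 0 of 6 were called, where 10.7% of 178 loci were called, with 2 at an unadjusted p under 0.05 and 0 by edgeR or DESeq2. Those 2 were 3-3, with 48.6, 42.2 and 38.2 in wild type and 30.4, 33.0 and 30.4 in the labelled libraries (log2 -0.44 ± 0.20, adjusted p = 0.156), and 3-1, with 89.0, 86.0 and 75.7 against 66.4, 70.1 and 62.1 (log2 -0.33 ± 0.13, adjusted p = 0.103). With TMM scaling 3-1 was called (log2 -0.42, adjusted p = 0.0141, limma). Neither pair of groups overlapped, as held for 23.6% of loci in that table. The wild-type livers of this comparison are not those of the Phe11 liver table.

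Whether the Phe11 effect differed between brain and liver was tested for 6 cysteine loci, and 0 were called, where 10.1% of 228 loci were called by limma. One of the 6, 3-3, had an unadjusted p under 0.05 (log2 0.32 ± 0.13, adjusted p = 0.114), and edgeR and DESeq2 called 0. For the family 4 copies, in the fit without a filter, where 6.56% of 381 loci were called, the log2 differences were -0.33 ± 0.60 at 4-10, -0.09 ± 0.61 at 4-12 and -0.84 ± 0.50 at 4-13, and none was called (adjusted p of at least 0.377, limma).

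Signal at the low loci also differed between groups of libraries. Summed over the 44 cysteine loci under the filter, brain libraries held between 12.6 and 24.7 reads per 10000. The 4 numbered wild-type livers held between 31.7 and 48.5, the 4 Phe11 livers between 23.5 and 37.5, which overlaps them, and the 3 Phe21 livers between 19.5 and 28.8, which does not. The 90 loci of other anticodons under the filter in every table held between 119.5 and 157 in the numbered wild-type livers, between 124 and 140 in Phe11 and between 58.7 and 73.7 in Phe21, so the lower sum in Phe21 liver was shared by loci of other anticodons. The 3 wild-type livers lettered a to c held between 29.2 and 51.5 over the cysteine loci. The 3 libraries labelled Phe31 held 89.7, 78.4 and 79.2, above every other library. The 90 loci of other anticodons went the same way, with 206 to 237 reads per 10000 in the libraries labelled Phe31 and 50.9 to 157 in the other 29. The cysteine sums in these 3 libraries rest on 50, 37 and 39 reads, beside 22 to 89 in the other 14 livers, and their depth (4719 to 5576 reads over all loci) was the lowest of the 32 libraries. The part of depth in this result was not tested.

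**Figure D4:**
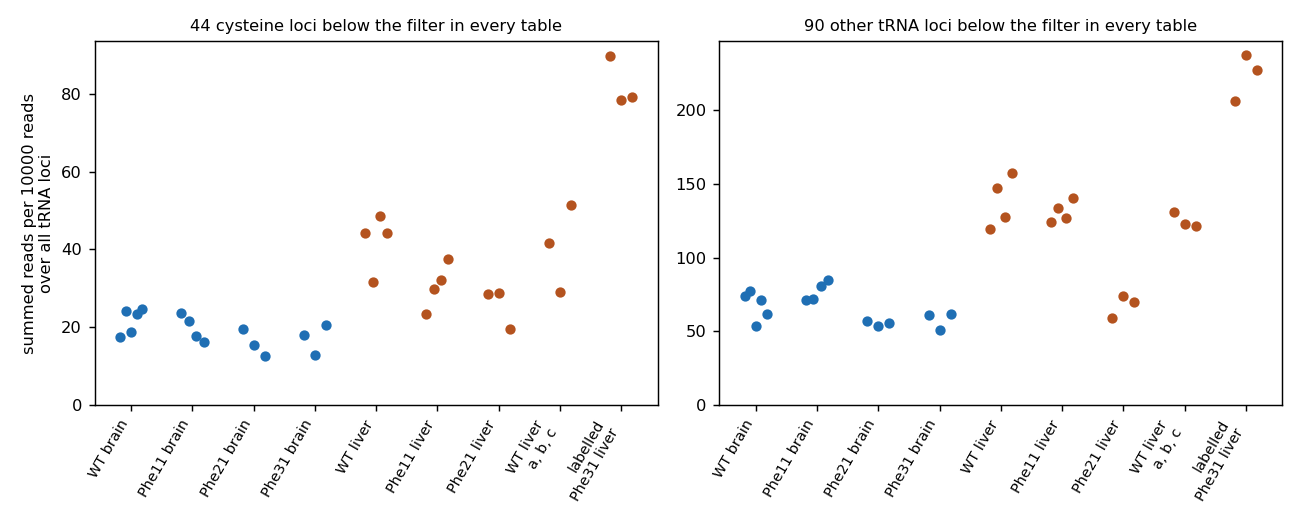
Summed reads per 10000 reads over all tRNA loci (vertical axes, linear from 0, with a separate scale per panel) at the 44 cysteine loci (left) and the 90 other tRNA loci (right) that stayed under the filter in every table, by group of libraries (horizontal axis), 1 point per library. The 3 liver libraries labelled Phe31 sit between 78.4 and 89.7 on the left and above all other libraries in both panels.

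The 4 copies of family 4 that are accessible in brain rested on few reads in these livers, and 1 read is worth more per 10000 in the shallower libraries labelled Phe31. At 4-12 the libraries labelled Phe31 held 7.17, 2.12 and 4.06 reads per 10000 against 0, 0 and 1.07 in their wild-type livers, which are 4, 1 and 2 reads against 0, 0 and 1. At 4-13 there were 3, 1 and 0 reads against 1, 0 and 0, at 4-10 there were 1, 2 and 0 against 0, 0 and 0, and at 4-29 there were 1, 0 and 1 against 1, 1 and 0, so that 4-29 had 2 reads on either side. The same libraries read 14.3, 2.12 and 14.2 at tRNA-Arg-TCT-4-1, the locus that is high in brain, against 5.04, 2.33 and 4.29 in those wild types. In the numbered livers tRNA-Arg-TCT-4-1 read 6.16 to 9.69 in wild type, 1.03 to 3.20 in Phe11 and 0.538 to 1.77 in Phe21, so the wild types lay above both knockouts. Summed over all 29 family 4 loci, the numbered wild-type livers held between 24.6 and 33.4 reads per 10000, the Phe11 livers between 13.9 and 16.8 and the Phe21 livers between 8.87 and 13.3, so that both knockouts lay below the 4 numbered wild types. The wild-type livers a, b and c held 21.4, 9.34 and 27.9, and b lay below every Phe11 liver and within the Phe21 range. The sums over the other 25 cysteine loci were between 376 and 388 in the numbered wild types, between 329 and 356 in Phe11 and between 338 and 374 in Phe21, also without overlap. Among single loci tested, the groups did not overlap at 13% in the Phe11 liver table and at 31.3% in the Phe21 liver table. Summed over 4-10, 4-12 and 4-13 the numbered wild-type livers read between 1.62 and 7.54, the Phe11 livers between 0 and 2.14 and the Phe21 livers between 0 and 0.887. The part of this locus in the liver values of family 4 was not tested.

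The share of reads at all cysteine loci ran from 2.97% to 3.71% in brain and from 3.45% to 4.81% in liver. Family 4 supplied a wild-type sum of 47.4 ± 13.6 reads per 10000 in brain (n = 4) and 28.1 ± 4.42 in the numbered livers (n = 2), and the other families supplied 302 ± 5.34 and 383 ± 6.33. Over the 15 brain libraries the family 4 sum ran from 17.96 to 64.9 and the sum of the other families from 269.9 to 308.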

How the data were processed

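ATAC-seq reads of nuclei from mouse brain and liver were trimmed by the authors with Trim Galore 0.6.4, aligned with Bowtie2 2.4.1 to GRCm38.p6 (up to 20 alignments per read pair), cleared of duplicates with Picard 2.23.8 and kept with SAMtools 1.10 at a mapping quality of at least 30. Fragments of at most 175 nt were counted with featureCounts 2.0.0 over each GtRNAdb tRNA gene extended by 50 nt in both directions. The deposited signal is this read count divided by a DESeq2 1.30.0 size factor, in 6 tables of 1 tissue and 1 knockout line each, with wild-type libraries that several tables share. Reads that fit several near-identical copies equally well fail the quality filter, which can lower the signal of multicopy families. The deposited peak coordinates are consensus regions, made by the authors with Genrich 0.6 and DiffBind 3.0.8. Their columns of group means and fold changes were not used.

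Whole reads were recovered from the steps of the deposited values (100% of values whole within a relative tolerance of 1e-06) and set the depth, and reads per 10000 over the 401 loci were used across tables. Loci with a mean of at least 10 were tested by limma 3.58.1 with trend on log2(normalised count + 1), in R 4.3.3, within each table, with Benjamini-Hochberg adjustment over all loci tested, a threshold of 0.05 and a batch term for Phe11. Fold changes on this scale understate those of low loci. Tissues and knockouts were compared with each other on reads per 10000. The fit was tested on simulated data. EdgeR 4.0.16 and DESeq2 1.42.0 on recovered reads, other filters, pseudocounts, scalings and left-out libraries were alternatives. Closeness of library pairs was judged by a chi-square test over loci with at least 10 reads. Every cysteine locus that passed the filter is named. The members and lists were chosen with earlier results of these data known.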

Additional observations from a re-analysis of the deposited data

Results flagged for a closer look

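In the Phe11 livers, tRNA-Cys-GCA-4-13 met the criterion for a library apart from its group, since replicate 4 read 1.07 reads per 10000 and the other 3 read 0. The gap is 1 read, which counting alone can give, and it was the only one among 52 sets of a locus and a group that were examined.

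Differences between knockouts or tissues, tested directly with limma, were called at 3 loci. Between Phe11 and Phe21 brain 1 of 5 cysteine loci was called with the filter, where 35.1% of 225 loci were called. Without it 2 of 25 loci of other families and 0 of 29 of family 4 were called, where 23.4% of 380 were. For the Phe11 effect between tissues, without the filter, the counts were 1 of 25 and 0 of 29, where 6.56% of 381 were called. The log2 difference between Phe11 and Phe21 brain was 0.31 at tRNA-Cys-GCA-3-1 (adjusted p = 0.0189), higher in Phe11, a call lost with TMM scaling and with DESeq2. In the fit with no filter on low values it was 1.36 at tRNA-Cys-GCA-1-1 (adjusted p = 0.00985), where the Phe11 brains read 5.43, 4.70, 2.25 and 3.82 reads per 10000 and the Phe21 brains 2.48, 2.36 and 0. In the same kind of fit the Phe11 effect at tRNA-Cys-GCA-18-1 was lower in brain than in liver by a log2 difference of -1.37 (adjusted p = 0.0249), at a locus with at most 2 reads in any of those libraries.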

How the results depend on the processing

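Of 1504 values recomputed under alternatives, none turned its direction while called. In Phe11 brain the count of 3 cysteine loci called became 0 with a minimum mean of 30, under which those 3 loci are not tested, and 0 within batch 1, and leaving out 1 library at a time gave 3 to 4. In Phe11 liver the count of 1 became 0 in limma without trend, 0 within batch 1 and 0 within batch 2, and stayed at 1 to 1 with 1 library left out. With no filter, Phe21 liver had 1 call in place of 0 (tRNA-Cys-GCA-4-10, 0 reads in every Phe21 liver), the tissue comparison 17 in place of 6, Phe11 against Phe21 brain 2 in place of 1, and the contrast of the Phe11 effect between tissues 1 in place of 0. For the libraries labelled Phe31 the count of 0 became 1 with a minimum mean of 30 and 1 with TMM scaling, both tRNA-Cys-GCA-3-1. Between Phe11 and Phe21 brain the count of 1 became 0 with DESeq2 and 0 within batch 1, and ran from 0 to 1 with 1 library left out. TMM scaling there lost tRNA-Cys-GCA-3-1 and called tRNA-Cys-GCA-3-3 (log2 -0.29, adjusted p = 0.0396). Over all loci, DESeq2 called 35 where limma called 74 in Phe11 brain, 11 against 25 in Phe11 liver, 12 against 27 in Phe21 liver, 3 against 19 for the libraries labelled Phe31, 44 against 79 between Phe11 and Phe21 brain and 6 against 15 between Phe11 and Phe31 brain, and TMM scaling called 9 against 0 in Phe21 brain, as did leaving out Phe21 replicate 7 (9 of 255 loci). The 19 calls over all loci for the libraries labelled Phe31 became 7, 6 and 5 without wild-type liver a, b and c, 11 without the library labelled Phe31 b, and 1 in limma without trend. Other such counts that moved by over 1.5 times with 1 library left out were Phe11 liver (25 to 14 without Phe11 replicate 6), the contrast of the Phe11 effect between tissues (23 to 39 without wild-type liver 3), Phe11 against Phe21 brain (79 to 52 without Phe11 replicate 5 and 51 without Phe21 replicate 8), Phe11 against Phe31 brain (15 to 8 and 9 without Phe11 replicates 5 and 14, and to 5, 25 and 5 without Phe31 replicates 10, 11 and 12), Phe21 brain (0 to 1 without wild-type replicate 2) and Phe31 brain (2 to 1 when Phe31 replicate 10, Phe31 replicate 11 or 1 of the 3 wild types was left out). Within batch 1 Phe11 brain had 6 calls over all loci. The causes were not tested beyond the filters' own construction. Counting close pairs once and using all 5 wild-type brains, both chosen after seeing the data, moved no count of cysteine loci, though over all loci the first gave 13 calls in Phe11 liver and the second 6 in Phe21 brain.

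No paired analysis was run, because the knockout and wild-type libraries compared share no sample number and no label states a pairing. Some column names repeat a number in both groups, and whether it marks pairs is not given. Between tissues, brain and liver libraries with the same sample number had correlations of their deviations from -0.064 to 0.0882 over 217 loci and were not treated as pairs. Libraries whose column names share another number between tissues were not part of that check. A replicate block called 6 cysteine loci and 141 of 214 loci in all, against 145 without it. Liver depth, with a mean of 0.886 reads per low cysteine locus and library, limits what can be seen at most copies.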
